A study of Mus musculus with 2 samples.

Results

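CAR-like stromal cells without inflammatory activation were examined in the bones of vehicle-treated (Veh) and doxorubicin-treated (Doxo) mice. These cells were chosen by a rule on the deposited values of 24 genes. A cell was kept when the mean of Cxcl12, Adipoq and Lepr was strictly above the means of 5 other sets of 3 genes (Fmod, Cilp and Angptl7; Clec3b, Col14a1 and Mfap5; Ifitm5, Dmp1 and Bglap2; Acan, Col9a1 and Matn3; Cdh5, Emcn and Kdr), when at least 2 of the 3 CAR genes were above 0, and when fewer than 3 of Il6, Lif, Gdf15, Cxcl1, Cxcl2 and Ccl7 were above 0. The rule kept 903 of 4976 cells, 400 of 2488 Veh cells (16.1%, 95% interval 14.7 to 17.6) and 503 of 2488 Doxo cells (20.2%, 18.7 to 21.8). Another 38 Veh and 7 Doxo cells met the CAR part of the rule but had 3 or more inflammatory genes.

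Femurs and tibias of 12-week-old female mice were taken 96 h after vehicle or 10 mg/kg of doxorubicin, an anthracycline that damages DNA. Bone fragments were digested with collagenase, and cells of the blood lineages were depleted by magnetic separation and sorting before droplet-based 3′ RNA sequencing. Each condition was 1 library, and the number of mice behind it is not stated in the sources used here. No test between conditions was therefore made, cells were not treated as replicates, and the 95% intervals given reflect counting error alone. A difference between the libraries cannot be told apart from a difference between the conditions.

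CAR cells (Cxcl12-abundant reticular cells, also known as leptin receptor-positive or adipo-lineage stromal cells) form a network around the sinusoids of bone marrow. They secrete Cxcl12 and Kitl, the chemokine and the cytokine that retain and maintain hematopoietic stem cells, and they carry the transcription factors Ebf3 and Foxc1. They are precursors of marrow adipocytes and of osteoblasts, and express adipocyte genes such as Adipoq and Lpl without storing much fat.

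Levels are sums, over the cells of a library, of unique molecular identifiers (UMIs, each standing for 1 captured RNA molecule) that were recovered from the deposited log2 values. They are given per 1000000 UMIs (CPM). The 400 Veh cells held 2789069 UMIs (median 6321 per cell) and the 503 Doxo cells 3876429 (median 7133). The median share of mitochondrial UMIs was 2.82% in Veh and 4.05% in Doxo, and its part in the differences below was not tested. The whole libraries held 24861196 and 20793515 UMIs, and 4 cell barcodes occurred in both.

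The label was checked with Ebf3, Kitl and Foxc1, markers that the rule did not use. At least 2 of them had a UMI in 335 Veh cells (83.8%) and 421 Doxo cells (83.7%). The share of other cells with at least 2 is not given here. Foxc1 had a UMI in 52.6% of the other Veh and 52.3% of the other Doxo cells, so its detection alone says little. Kitl was at 1649 CPM in the Veh and 1552 CPM in the Doxo CAR-like cells, against 51.8 and 24.3 CPM in all other cells of the same libraries. Ebf3 was at 560 and 667 CPM, against 16.9 and 14.3 CPM. Foxc1 stood apart less, with 398 and 377 CPM against 147 and 148 CPM. The other cells include the CAR-like cells with 3 or more inflammatory genes, where Kitl was at 1443 CPM in Veh and 1565 CPM in Doxo. Ebf3 was at 280 and 468 CPM there, and Foxc1 at 162 and 206 CPM. Kitl and Ebf3 were thus not particular to cells with fewer than 3 inflammatory genes.

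The other 65 Veh and 82 Doxo cells kept by the rule had 0 or 1 of these markers and went against the label. Their Cxcl12 level was 1492 CPM in Veh and 1442 CPM in Doxo, whereas cells with 2 or 3 markers had 21302 and 24329 CPM. Prg4, which encodes the joint lubricant lubricin, was at 22329 and 24698 CPM in these cells and at 1139 and 937 CPM in the cells with 2 or 3 markers. Either library thus held cells that met the rule but were low in CAR markers and high in a gene of joint tissue. List medians without them are given in the closing section.

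**Figure D1:**
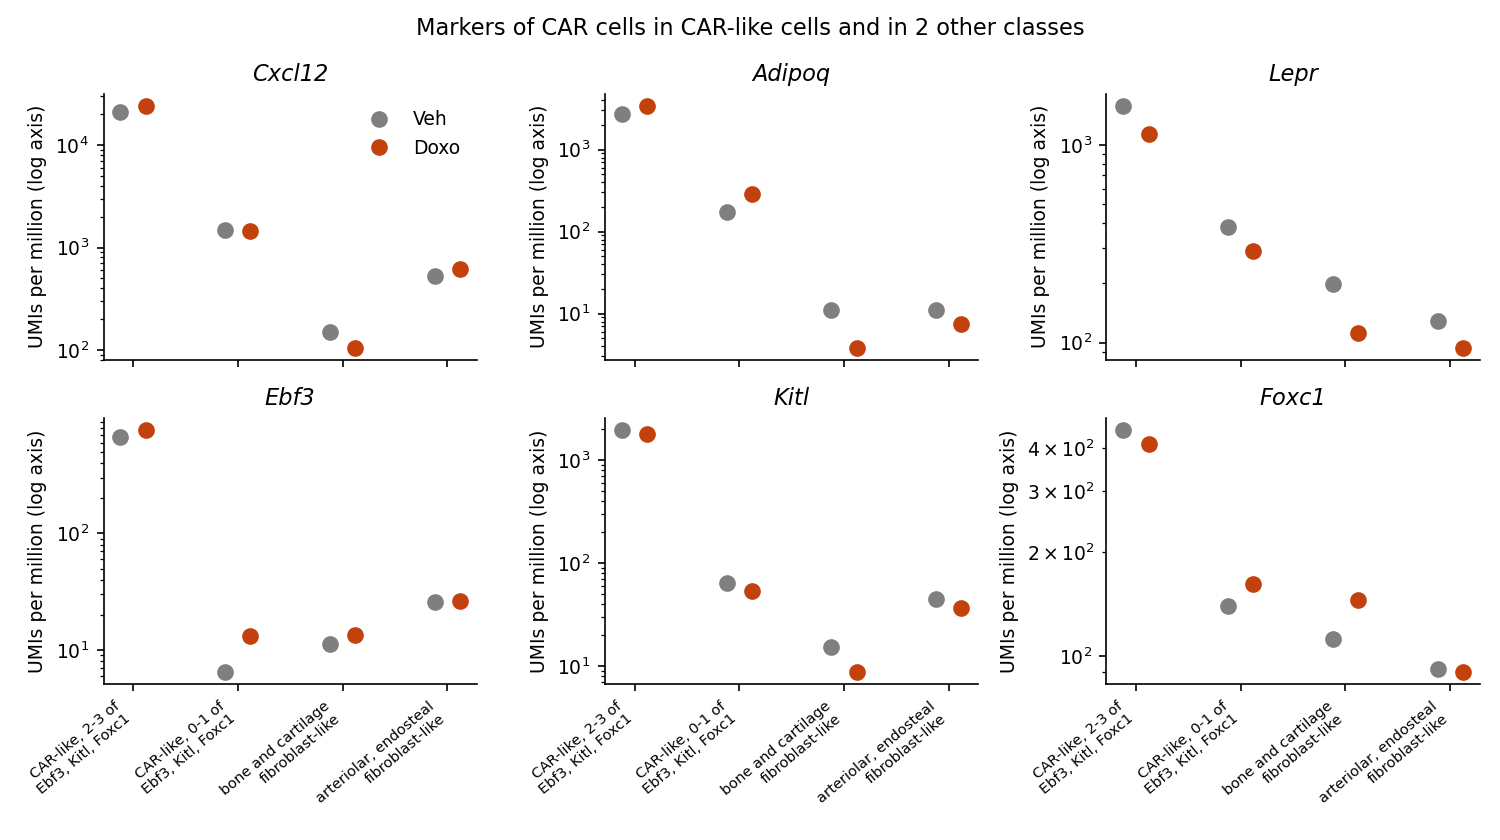
Levels of 6 CAR markers in UMIs per 1000000 (log axis) in CAR-like cells with 2 or 3 and with 0 or 1 of Ebf3, Kitl and Foxc1, and in cells assigned by the same rule to bone and cartilage fibroblasts and to arteriolar and endosteal fibroblasts. Each point is the sum over the cells of 1 library. Cxcl12 was at 21302 (Veh) and 24329 (Doxo) in the first group and at 1492 (Veh) and 1442 (Doxo) in the second.

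The levels of the genes used to choose the cells are a description only. Cxcl12 was at 17993 CPM in Veh and 21224 CPM in Doxo, Adipoq at 2274 and 3009 CPM, and Lepr at 1378 and 1021 CPM. Single cells spread widely around these sums. The Cxcl12 level of a cell had a 10th percentile of 467 CPM, a median of 20599 CPM and a 90th percentile of 33670 CPM in Veh, and 397, 23017 and 35699 CPM in Doxo. None of the 6 inflammatory genes was detected in 267 Veh and 403 Doxo cells, 1 was detected in 95 and 78, and 2 in 38 and 22. Just outside the limit, 24 Veh and 5 Doxo cells had 3 of them. A cell without inflammatory activation by the rule can thus hold UMIs of 1 or 2 of these genes. Ccl7 was at 245 CPM in Veh and 42.0 CPM in Doxo CAR-like cells, against 103 and 22.9 CPM in all other cells. Gdf15 was at 44.5 CPM, in 12 Veh cells, and at 7.74 CPM in Doxo, against 11.9 and 10.4 CPM. Il6, Lif, Cxcl1 and Cxcl2 were below their levels in the other cells in both libraries. The CAR mean exceeded the next set by less than 1 deposited unit in 21 cells of either library, and the smallest margins were 9.33e-05 and 0.0148.

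The genes that set CAR-like cells most apart from all other cells of both libraries, outside the rule, were mostly of low abundance. C6, a complement component, was at 33.7 CPM in Veh and 32.2 CPM in Doxo, at least 90.9 times its level in the other cells. Mc2r, the receptor for corticotropin, was at least 68.6 times higher, with 18.6 and 14.2 CPM, and Cbln1, a secreted protein known from synapses, at least 63.5 times, with 106 and 102 CPM. Serpina12, the adipokine vaspin, had 204 and 180 CPM, and Aldh1a2, which makes retinoic acid, 239 and 164 CPM. Esm1, a secreted proteoglycan, was the most abundant gene of this group, with 1610 CPM in Veh and 1329 CPM in Doxo. These ratios come from the cells the rule had separated and are no test.

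Doxo was then compared with Veh within the CAR-like cells, over 9855 genes outside the rule with at least 50 UMIs. A gene was called when its log2 ratio of Doxo to Veh reached 1 in either direction. By this threshold 189 genes (1.92% of those tested) were higher and 185 (1.88%) were lower in Doxo. These shares are the background for every count of called genes in a list of the CAR-like cells below. The median log2 ratio of all tested genes was 0.01, and 79.8% of them lay within 0.5 of 0. Few cells carried many of the lower genes: 52 of the 185 had at least 50% of their Veh UMIs in 5 cells, whereas 10 of the 189 higher genes had as much of their Doxo UMIs in 5 cells.

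**Figure D2:**
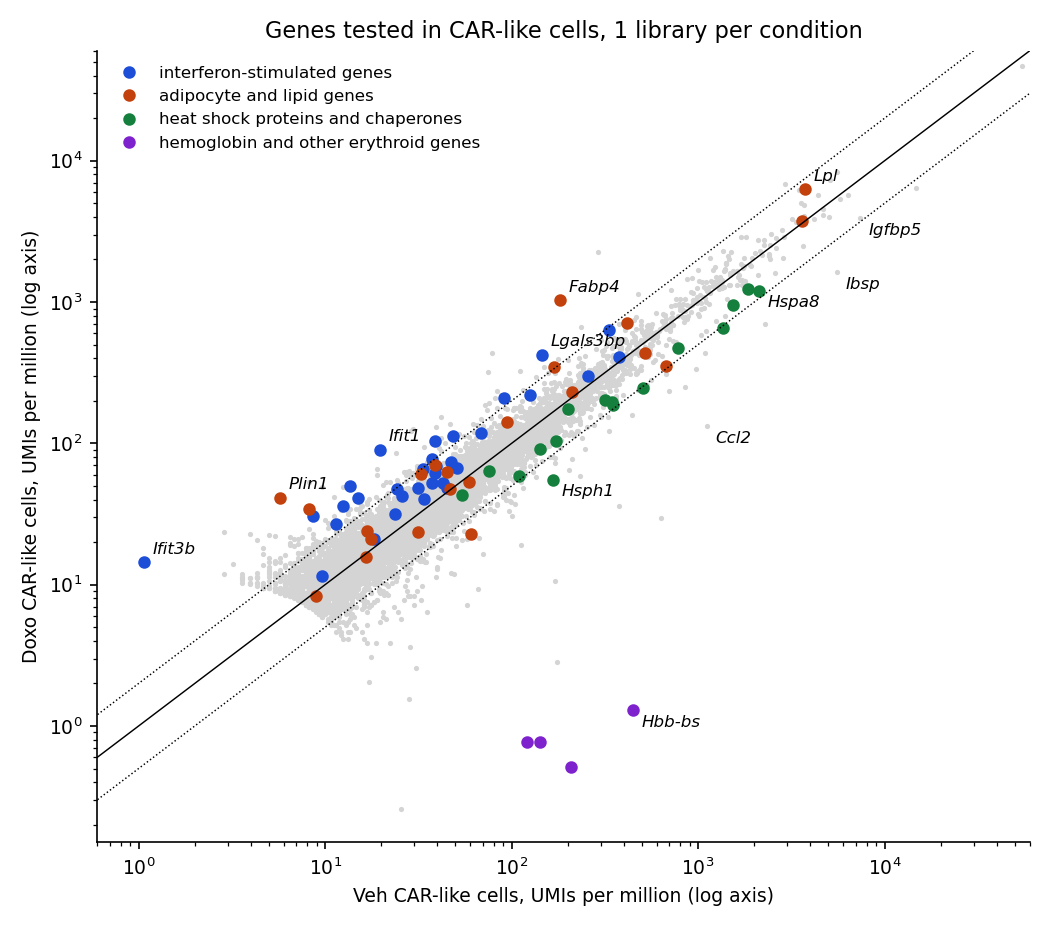
Level of each tested gene in the CAR-like cells of Doxo against Veh, in UMIs per 1000000 (log axes), with the genes of 4 lists in colour. The solid line marks equal levels and the dotted lines a log2 ratio of 1. Interferon-stimulated genes lie above the solid line, heat shock genes below it, and hemoglobin genes far below it.

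Interferon-stimulated genes were higher in the Doxo CAR-like cells as a group. These genes are induced by type I and type II interferon through STAT and IRF factors, and encode antiviral proteins and regulators of the response. Of 38 listed, 32 were tested: 12 were called higher (the background is 1.92% of all genes), none was called lower, and all 32 had a log2 ratio above 0. Their median log2 ratio was 0.82, against 0.01 over all tested genes.

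Ifit1, which binds viral RNA that lacks host cap methylation, had 55 UMIs (19.7 CPM) in Veh and 350 UMIs (90.3 CPM) in Doxo, a log2 ratio of 2.18 (1.78 to 2.63). With every cell thinned to 2000 UMIs, it was detected in 3.65% of Veh and 12.6% of Doxo CAR-like cells. Ifit3, its partner, was at 13.6 and 50.05 CPM (log2 ratio 1.86). The near-identical copy Ifit3b had 3 and 56 UMIs (3.54, 2.13 to 6.07), and how reads were divided between these copies is uncertain.

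Lgals3bp, a secreted glycoprotein, was the most abundant of the 12 genes called higher, with 145 CPM in Veh and 424 CPM in Doxo (1.54, 1.39 to 1.71). Isg15, a ubiquitin-like modifier, was at 90.7 and 208 CPM (1.20), and Usp18, which removes Isg15 from proteins and restrains the interferon receptor, at 8.61 and 30.4 CPM (1.80). The remaining genes called higher were Ifi44 (1.51), Oasl2 (1.43), Ddx60 (1.42), Ifi27l2a (1.22), Rtp4 (1.21) and Gbp7 (1.05). Iigp1, an immunity-related GTPase, was the most abundant listed gene in Doxo, with 331 and 631 CPM, and its log2 ratio of 0.93 was within the threshold. The RNA sensor Ddx58 (0.10) and the membrane protein Bst2 (0.11) had the smallest ratios.

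Part of this group carries a recognisable sequence at its promoters. The response element bound by interferon-activated STAT and IRF complexes was searched, on both strands, as GAAA, any 2 bases, GAAA in the 250 bases before each RefSeq gene start (GRCm38.p6). Of the 32 tested interferon-stimulated genes 23 had a promoter in the table, and 12 of these (52.2%) held the motif, against 936 of all 27025 genes (3.46%). It was found in 6 of 9 genes called higher and in 6 of 14 genes within the threshold. These stretches are shown for genes called higher, with the matches and any overlap between them in capitals, because the first match begins within 156 bases of the start in each of them:
Ifit1, chr19:34640765-34640833, plus strand: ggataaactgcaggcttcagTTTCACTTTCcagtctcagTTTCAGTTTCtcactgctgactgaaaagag
Ifit3, chr19:34583353-34583436, plus strand: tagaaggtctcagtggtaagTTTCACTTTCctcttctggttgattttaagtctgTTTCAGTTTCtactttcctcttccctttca
Isg15, chr4:156200855-156200916, minus strand: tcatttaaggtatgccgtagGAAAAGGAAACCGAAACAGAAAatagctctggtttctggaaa
Ddx60, chr8:61928014-61928086, plus strand: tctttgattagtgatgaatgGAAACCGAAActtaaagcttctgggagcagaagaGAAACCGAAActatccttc
Gbp7, chr3:142530263-142530312, plus strand: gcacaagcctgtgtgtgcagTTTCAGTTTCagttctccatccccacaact
Bst2, which was within the threshold, also held it:
Bst2, chr8:71537567-71537622, minus strand: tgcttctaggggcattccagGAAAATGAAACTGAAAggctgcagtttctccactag
The stretch of Ifit3b at chr19:34607749-34607832 is letter for letter that of Ifit3. Ifit1 and Ifit3 hold 2 separate matches, Isg15 a run of 3 overlapping ones, and Bst2 a run of 2 despite its log2 ratio of 0.11. A match is a description of the letters and does not show that a factor bound there.

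The interferon-stimulated UMIs were spread over the CAR-like cells. The median cell had 17.4 UMIs of the list per 10000 in Veh and 29.6 in Doxo, and the 90th percentiles were 44.3 and 68.1. The 10% of cells with most of these UMIs held 33.5% of them in Veh and 33.6% in Doxo. At the low end the libraries were alike, with 10th percentiles of 4.38 and 4.36.

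**Figure D3:**
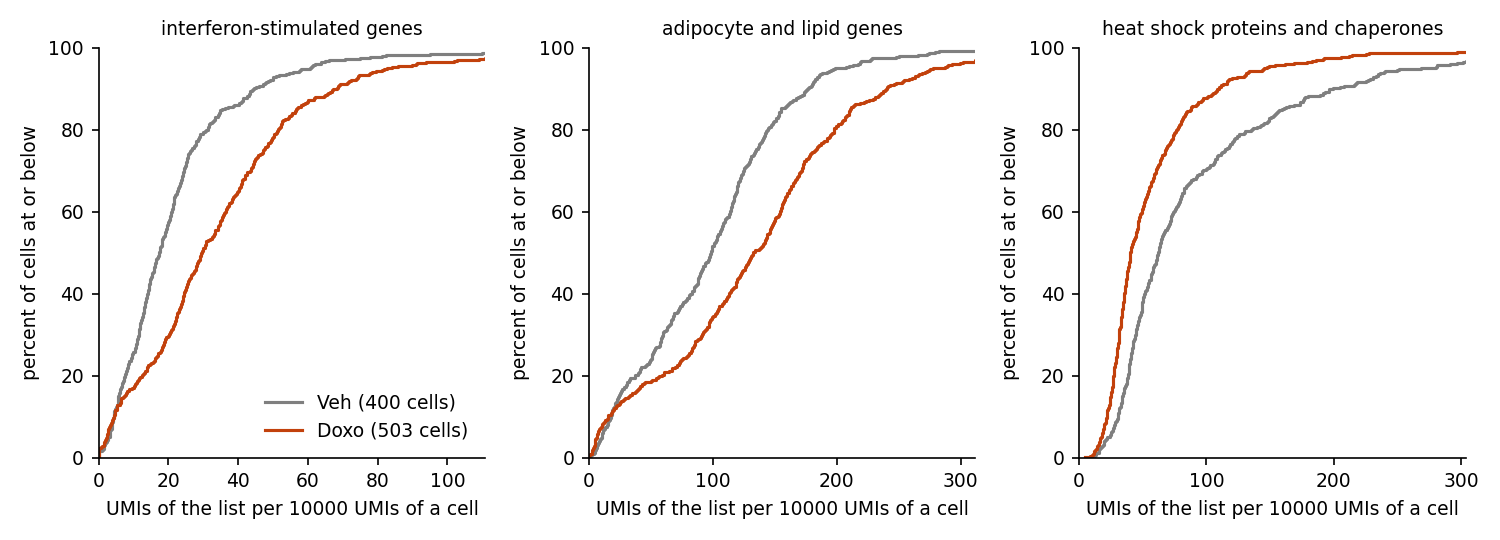
Share of CAR-like cells (vertical axis, percent) at or below each level of a gene list (horizontal axis, UMIs of the list per 10000 UMIs of the cell), for the 400 Veh and 503 Doxo cells. The Doxo curve lies to the right for interferon-stimulated and for adipocyte and lipid genes over most of its course, and to the left for heat shock genes.

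The same ratios were set beside those of fibroblast-like cells assigned by the same sets of genes, from the same 2 libraries and without a test. In 1697 bone and cartilage fibroblast-like cells 0.685% of tested genes were called higher and 1.98% lower, and in 427 arteriolar and endosteal fibroblast-like cells 0.953% and 1.81%. The interferon list had a median log2 ratio of -0.32 in the first, with 0 of 24 genes called higher and 5 lower. In the second the median was -0.03, with 3 of 23 called higher and 5 lower, against 0.82 in the CAR-like cells. Ifit1 had a log2 ratio of -2.67 and -1.06 in these classes. However, 1 Veh cell held 87.2% of the 78 Ifit1 UMIs of the Veh bone and cartilage fibroblast-like cells, and only 8 of 823 of those Veh cells and 7 of 874 of the Doxo cells had any, against 32 of 400 and 148 of 503 CAR-like cells. Of the arteriolar and endosteal fibroblast-like cells 14 of 279 in Veh and 9 of 148 in Doxo had one. Isg15 had log2 ratios of -1.11 and -1.82 in these classes, on 72 and 87 Veh UMIs, of which 1 cell held 52.8% and 31.03%. Lgals3bp had ratios above 0 in both, at 0.55 and 1.09.

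**Figure D4:**
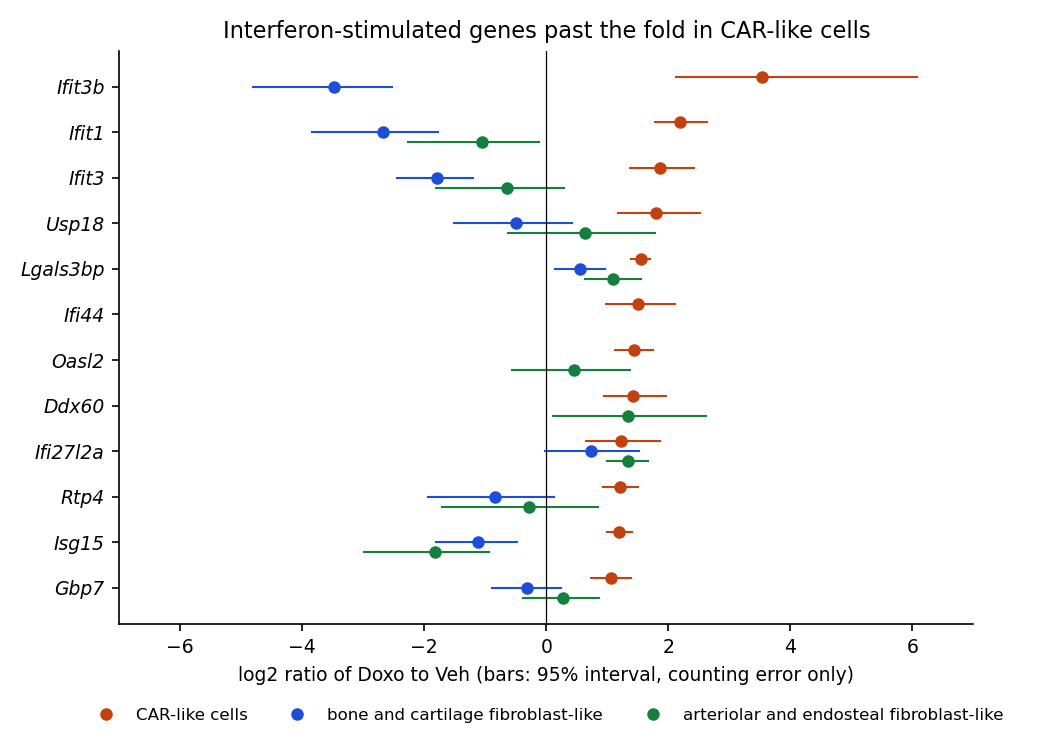
Log2 ratio of Doxo to Veh for the 12 interferon-stimulated genes called higher in CAR-like cells, beside the same ratio in 2 fibroblast-like classes (points with under 20 UMIs left out). Bars are 95% intervals for counting error only. The Ifit1 ratio of -2.67 in bone and cartilage fibroblast-like cells rests largely on 1 Veh cell with 87.2% of the UMIs.

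MHC class I and immunoproteasome genes, which present peptides and respond to interferon as well, had 1 of 18 tested genes called higher, Nlrc5, the transactivator of MHC class I, with 14.3 CPM in Veh and 29.4 CPM in Doxo (1.02). The median was 0.21. H2-D1, the most abundant, was at 3343 and 3663 CPM (0.13).

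Genes of fat storage were higher in a part of the Doxo CAR-like cells. The adipocyte and lipid list had 4 of 22 tested genes called higher and 1 lower (the background is 1.92% and 1.88%), and a median log2 ratio of 0.37. Fabp4, a fatty acid carrier of adipocytes and of some endothelium, had 507 UMIs (182 CPM) in Veh and 3985 UMIs (1028 CPM) in Doxo, a log2 ratio of 2.50 (2.37 to 2.64). Thinned to 2000 UMIs, 7.81% of Veh and 29.1% of Doxo CAR-like cells had a Fabp4 UMI. Before thinning, 57 of 400 and 194 of 503 CAR-like cells had one, while in bone and cartilage fibroblast-like cells 32 of 823 and 32 of 874 did, at medians of 9806 and 7636 UMIs per cell.

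Plin1, the coat protein of lipid droplets, had 16 and 160 UMIs (5.74 and 41.3 CPM, log2 ratio 2.81, 2.10 to 3.69), and Cd36, a fatty acid transporter, 23 and 134 UMIs (2.04, 1.42 to 2.77). G0s2, an inhibitor of fat breakdown, was at 168 and 345 CPM (1.04). Fabp5, another fatty acid carrier outside the list, had 209 and 1242 UMIs (2.09). The abundant lipase Lpl was within the threshold, at 3733 and 6322 CPM (0.76), as were the adipogenic regulators Pparg (0.59) and Cebpa (0.14). Cebpb was at 669 and 355 CPM (-0.92). Cfd (adipsin), the 1 gene called lower, had 168 and 88 UMIs, of which 1 cell held 86.9% in Veh and 1 cell 65.9% in Doxo. The rise of Fabp4 and Plin1 was not limited to cells with 2 or 3 of Ebf3, Kitl and Foxc1. Fabp4 was at 164 and 1018 CPM (2.63) in those cells, and Plin1 had 16 and 130 UMIs. In the 65 Veh and 82 Doxo cells with 0 or 1 of these markers, Fabp4 was at 268 and 1094 CPM (2.02). Plin1 had 0 and 30 UMIs there, while Adipoq was at only 172 and 283 CPM.

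Plin1 was found mostly in cells with Fabp4. At least 5 Fabp4 UMIs were found in 18 Veh cells (4.50%) and 105 Doxo cells (20.9%), a split made after the values were seen. All 16 Plin1 UMIs of Veh lay in the 18 cells, and 135 of the 160 Plin1 UMIs of Doxo lay in the 105 cells. This did not hold for G0s2 and Lpl, of which 633 of 1339 and 15000 of 24505 Doxo UMIs lay in the other cells, as did 388 of 469 and 9370 of 10411 Veh UMIs. In Veh, the 18 cells had Lpl at 6866 CPM and Adipoq at 4577 CPM, while the other 382 had 3553 and 2142 CPM. The median depths of these Veh cells were 8120 and 6220 UMIs. The 105 Doxo cells had Lpl at 9744 CPM and Adipoq at 4089 CPM, while the other 398 had 5171 and 2646 CPM. Their niche factors were near those of the other Doxo cells, with Cxcl12 at 23349 against 20510 CPM and Kitl at 1520 against 1563 CPM. The endothelial gene Cdh5 had a UMI in 2 of the 105 cells and in 0 of the 18, and the endothelial gene Pecam1 in 7 and 3. In Doxo, Cdh5 was at 7.18 CPM in the 105 cells against 0.34 in the other 398, and Pecam1 at 31.8 against 9.65 CPM. In Veh, Cdh5 was at 0 against 1.52 CPM and Pecam1 at 33.0 against 32.2 CPM. The leukocyte gene Ptprc had a UMI in none of the 105 or the 18 cells. Ifit1 was detected in 45 of the 105 cells and in 103 of the other 398, whose median depths were 8574 and 6687 UMIs.

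Niche factors, which support blood stem and progenitor cells, had no gene called in either direction among 12 tested, with a median of 0.05. Kitl was at 1649 and 1552 CPM (-0.09), Vcam1, an adhesion molecule for progenitors, at 1415 and 1896 CPM (0.42), and Ptn had the lowest ratio (-0.82). The regulators and receptors of CAR cells also had none called among 15, with a median of 0.12. Ebf1, which maintains the CAR cell state, was at 988 and 1082 CPM (0.13), Zeb2 at 664 and 811 CPM (0.29), and Il1r1 at 142 and 96.2 CPM (-0.56). Of the signals to osteoclasts, Csf1 was at 526 and 617 CPM (0.23) and Tnfsf11 (RANKL) at 90.7 and 75.3 CPM (-0.27, -0.52 to -0.02). Among cells with 0 inflammatory genes the direction of Tnfsf11 was the opposite, at 65.5 and 75.8 CPM (0.21, -0.13 to 0.55).

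Of 9 IGF genes 1 was called higher, with a median of -0.06, and of 12 WNT ligands and inhibitors 1, with a median of 0.36. Igfbp4, a binding protein for insulin-like growth factors, was at 2930 CPM in Veh and 6856 CPM in Doxo (1.23, 1.19 to 1.26), whereas Igfbp5 was at 7403 and 3903 CPM (-0.92). The ratios of Igfbp4 in the fibroblast-like classes were -0.02 and 0.31. Sfrp1, an inhibitor of WNT signalling, was at 150 and 344 CPM (1.20), and Sfrp4 at 395 and 220 CPM (-0.85). Haptoglobin (Hp) was at 3462 and 6184 CPM (0.84) and Il1rn, the interleukin-1 receptor antagonist, at 201 and 387 CPM (0.94). Among the 15 genes with the highest ratios by the naming rule were also Ffar2, a receptor for short-chain fatty acids (9.68 and 49.3 CPM, 2.32), and Podn, a matrix proteoglycan that was spread over 61 Veh and 228 Doxo cells (29.8 and 125.6 CPM, 2.07). Ccl6 (2.97) and Tagln (2.06) were among these 15 genes too, but 1 Doxo cell held 93.5% of the Doxo Ccl6 UMIs and 1 held 50.5% of the Doxo Tagln UMIs.

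Osteogenic genes had 3 of 15 called lower (the background is 1.88%), none higher, and a median of -0.27. Ibsp, a bone matrix sialoprotein, was at 5545 CPM in Veh and 1635 CPM in Doxo (-1.76, -1.80 to -1.72), and was detected in 76.3% and 55.9% of cells thinned to 2000 UMIs. Col1a1 was at 2276 and 699 CPM (-1.70), but 1 Veh cell held 38.0% of its UMIs, and it was detected in 56.2% of thinned Veh and 61.2% of thinned Doxo cells. Bglap, osteocalcin (-1.03), had 53.3% of its Veh UMIs in 1 cell, and was detected in 37.2% and 35.7%. Runx2, the master regulator of osteoblasts, was at 207 and 190 CPM (-0.13), and Sp7 at 26.5 and 36.4 CPM (0.45).

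**Figure D5:**
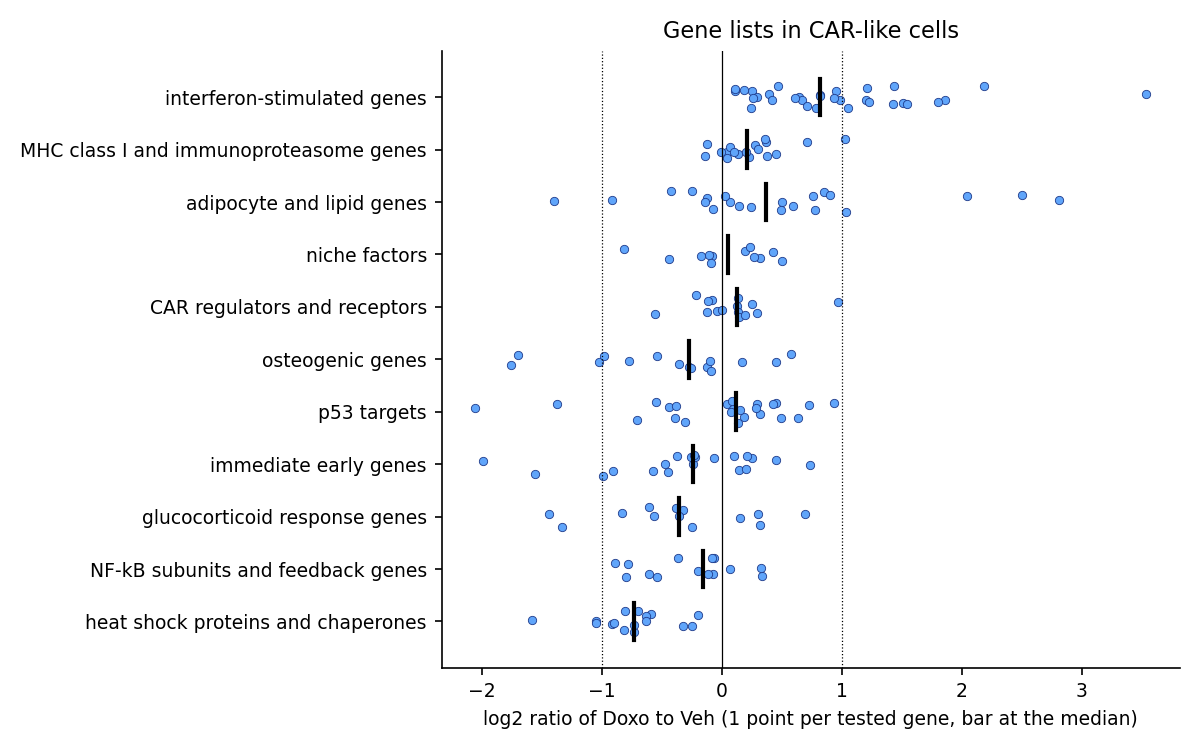
Log2 ratio of Doxo to Veh in CAR-like cells for each tested gene of 11 lists (points), with the list median (bar) and dotted lines at -1 and 1. The median is highest for interferon-stimulated genes (0.82) and lowest for heat shock proteins and chaperones (-0.73).

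Heat shock proteins and chaperones, which refold proteins under stress, were lower in Doxo as a group: 16 of 16 tested had a ratio below 0, 3 were called lower (the background is 1.88%), and the median was -0.73. Hsph1 was at 166 and 55.5 CPM (-1.58, -1.82 to -1.35), Hspa1a at 509 and 245 CPM (-1.05), and Hsp90aa1 at 1366 and 659 CPM (-1.05). Among cells with 0 inflammatory genes only Hsph1 of these passed the threshold (-1.52), with Hspa1a at -0.78 and Hsp90aa1 at -0.63. Among those with 2 the ratios were -1.27, -1.21 and -1.43. Hspa8, the most abundant, was at 2121 and 1206 CPM (-0.81). The medians were -0.23 and -0.29 in the fibroblast-like classes. A heat shock element, searched on both strands as GAA, any 2 bases, TTC, any 2 bases, GAA, was found in 2 of 12 promoters of this list and in 0.514% of all promoters. The 2 genes, Hspd1 (-0.73) and Hspe1 (-0.20), share it, since they are transcribed from it in opposite directions:
Hspd1, chr1:55088039-55088096, minus strand: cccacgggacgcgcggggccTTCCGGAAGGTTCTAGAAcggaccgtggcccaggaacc

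Immediate early genes, which with heat shock genes are also known to be induced when tissue is dissociated, had 2 of 20 called lower and a median of -0.24. Myc was at 233 and 58.6 CPM (-1.99) and Ier5 at 694 and 235 CPM (-1.56), whereas Fos was at 3687 and 4064 CPM (0.14). In the fibroblast-like classes the medians were 0.54 and 0.52. The median of the list was -0.12, 0.09 and 0.05 among cells with 0, 1 and 2 inflammatory genes, so its sign was not kept. The ratios of Myc and Ier5 differed with that number. Among cells with 0 inflammatory genes the log2 ratio was -0.18 for Myc and -0.31 for Ier5, and among those with 2 it was -3.19 and -2.02. Ccl2, a chemokine for monocytes that the rule did not use, was at 1119 and 133 CPM over all CAR-like cells (-3.08), and at 221 and 34.7 CPM among those with 0 inflammatory genes. Fewer Doxo than Veh cells had 1 or 2 such genes, and the part of this in the comparison was not tested. The interferon list had medians of 0.68, 0.79 and 1.98 among cells with 0, 1 and 2 inflammatory genes, and the heat shock list -0.52, -0.47 and -1.19. The last group held 38 Veh and 22 Doxo cells, and several interferon genes had few UMIs there, such as Ifit1 with 1 and 28. The 0.5 UMI added gave Ccl6, with 0 UMIs in both libraries, a log2 ratio of 0.56 in this group. The interferon list summed to 1724 and 4947 CPM in it.

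Genes of the p53 response to DNA damage had none of 24 tested called higher and 2 called lower 96 h after doxorubicin, with a median of 0.11. Cdkn1a (p21), named after its value was seen, was at 354 CPM in Veh and 261 CPM in Doxo (-0.44, -0.57 to -0.31). Phlda3, an inhibitor of AKT, had the highest ratio, at 92.1 and 177 CPM (0.94), and Plk2 the lowest, at 32.6 and 7.74 CPM (-2.06). Cdkn2a (p16) had 3 UMIs in Veh and 6 in Doxo, too few to compare. The list of cell cycle arrest and senescence genes had none of 14 called in either direction and a median of -0.07.

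Some further lists held single genes past the threshold. Among acute phase proteins Serpina3n, a protease inhibitor, was at 8.25 and 52.9 CPM (2.65), with ratios of 1.73 and 1.61 in the fibroblast-like classes, and 1 of 7 genes was called higher. Cxcl9, a chemokine induced by interferon gamma, was at 111 and 323 CPM (1.54), with 79.7% of its Veh and 51.0% of its Doxo UMIs in 5 cells, while Cxcl14, the most abundant chemokine outside the rule, was at 2824 and 3256 CPM (0.21). Of the 14 iron genes, the exporter Slc40a1 (ferroportin) was at 83.9 and 178 CPM (1.08) and its partner oxidase Heph at 31.2 and 69.7 CPM (1.15), whereas the storage protein Fth1 was at 4700 and 4573 CPM (-0.04).

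Glucocorticoid response genes had 2 of 13 called lower (the background is 1.88%) and a median of -0.36. Sgk1, a kinase, was at 333 and 122 CPM (-1.44). Errfi1, a feedback inhibitor of the EGF receptor, was at 1094 and 433 CPM (-1.34). Both had ratios between -0.16 and 0.01 in the fibroblast-like classes. The ratios of both in CAR-like cells differed with the number of inflammatory genes. Among cells with 0, 1 and 2 such genes they were -0.61, -1.64 and -2.47 for Sgk1 and -0.68, -1.29 and -1.79 for Errfi1. Neither gene thus passed the threshold among cells with 0 inflammatory genes. Collagens had 2 of 15 called lower, Col1a1 and Col3a1 (671 and 308 CPM, -1.12), and Col3a1 had ratios of -1.09 and -1.10 in the fibroblast-like classes too. Of 13 mitochondrially encoded genes 11 had ratios above 0, with a median of 0.43 (0.29 and 0.20 in the fibroblast-like classes). TGF-beta and BMP genes (18 tested, median -0.22), NF-kB subunits and feedback genes (14, -0.16), BCL2 family genes (13, 0.09) and circadian clock genes (16, 0.05) had none called in either direction, and neither had 77 ribosomal protein genes (0.13).

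The largest negative ratios belonged to genes of blood cells. Hbb-bs, a hemoglobin chain, had 1255 UMIs in the Veh CAR-like cells and 5 in the Doxo ones (-8.31). The 5 erythroid genes together were at 921 and 3.35 CPM in CAR-like cells and at 333 and 2.72 CPM in all other cells, and a UMI of them was found in 79.0% of Veh and 1.99% of Doxo CAR-like cells. Of the 1761 Veh UMIs of S100a9, a neutrophil gene, 1 cell held 95.2%, and the 6 neutrophil genes together were at 1413 and 86.2 CPM. The part of these RNAs in the other differences was not tested beyond the values that follow. The pericyte and smooth muscle list was at 144 and 287 CPM, and its members differed in direction. Notch3 was at 77.4 and 150.1 CPM and Tagln at 29.0 and 121.5 CPM, with 50.5% of the 471 Doxo Tagln UMIs in 1 cell, whereas Rgs5 was at 21.2 and 8.77 CPM, Acta2 at 11.1 and 2.06 CPM, Mcam at 3.94 and 3.10 CPM and Myh11 at 1.08 and 1.81 CPM. Markers of mature adipocytes, of which 4 of 5 were in the table and 1 of these was at 0 in Veh, were at 7.89 and 52.4 CPM, and reached at most 27.9 UMIs per 10000 in any cell. Leaving out the 23 Veh cells with over 20 UMIs of erythroid, neutrophil and megakaryocyte genes per 10000 (0 in Doxo) left 192 genes called higher and 163 lower, with medians of 0.82 for the interferon and -0.75 for the heat shock list.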

How the data were processed

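The log2 values deposited by the authors hold 21905 genes in 2488 cells per library. Reads had been aligned to GRCm38 with Cell Ranger, and the labels also name Partek; versions are not given in the sources used here. The values showed 2 rounds of scaling to 1000000 per cell with a logarithm each, which were inverted. Of recovered values up to 50 UMIs, 99.9% were within 0.1 of a whole number, with exceptions in 20 symbols. The filters the study states (200 to 10000 genes and at most 10% mitochondrial RNA per cell) left all deposited cells in place. Both libraries hold exactly 2488 cells. Whether cells had been sampled to an equal number is not given in the sources used here, so counts and shares of cells refer to the deposited cells. Members and lists were chosen with earlier results of these data known. UMIs were summed over cells, with 0.5 added for log2 ratios. Intervals are exact binomial (conditional for ratios). Genes named are the label and rule genes, the 15 highest and 15 lowest ratios among genes with at least 100 UMIs whose level in the higher library was at least that of other cells, the 2 highest, the 2 lowest and the most abundant gene of each list, and the 15 most enriched. Others, such as further members of short counts, Cdkn1a and Cdkn2a, were added after values were seen. Doublets were kept, and one alternative leaves out likely ones. Calculations (Python 3.11.15, scipy 1.17.1) were tested on simulated data. GENCODE M21 was used for gene IDs.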

Additional observations from a re-analysis of the deposited data

Results flagged for a closer look

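Named genes and list members are given here when their log2 ratio passed 1 in one direction in CAR-like cells and in the opposite direction in a fibroblast-like class. With 1 library per condition the difference between the classes was not tested. In bone and cartilage fibroblast-like cells Fabp4 had a log2 ratio of -2.22 (2.50 in CAR-like cells), and 1 Veh cell held 84.2% of its 221 Veh UMIs there. Ifit1 had -2.67 in the same class, where 1 Veh cell held 87.2% of the UMIs. Ifit3 had -1.79, with 58.0% of the Veh UMIs in 1 cell, and Ifit3b -3.48, with 75.7%. In arteriolar and endosteal fibroblast-like cells Ifit1 had -1.06, on 51 Veh and 10 Doxo UMIs, with 47.1% of the Veh UMIs in 1 cell. Isg15 had -1.11 and -1.82 in these classes, with 52.8% and 31.03% of the Veh UMIs in 1 cell. Rgs5, a pericyte gene, had 3.86 in bone and cartilage fibroblast-like cells, where 1 Doxo cell held 65.5% of the UMIs, and -1.26 in CAR-like cells, where 1 Veh cell held 47.5%.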

How the results depend on the processing

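No paired analysis was possible because each condition has 1 library. The share of CAR-like cells was 10.7% of Veh (267 cells) and 16.2% of Doxo cells (403) with no inflammatory gene allowed, 17.6% of Veh cells (438) with no limit, 13.1% (325) and 16.4% (408) with all 3 CAR genes required, and 13.5% (335) and 16.9% (421) with at least 2 of Ebf3, Kitl and Foxc1, an alternative added after the data were seen. With no limit 510 Doxo cells were kept. With cells thinned to 2000 UMIs, which leaves out shallower cells, the share was 18.5% in Doxo (444). Doxo had the larger share in each alternative for which both libraries are given. Counts of called genes depend on the UMI minimum: 366 higher and 378 lower from 20 UMIs, 69 and 73 from 200, and 102 and 102 in thinned cells. With mean deposited log2 values 49 genes were lower, a scale on which the osteogenic median was 0.15 and the heat shock median -0.36. Without the cells low in Ebf3, Kitl and Foxc1 the medians were 0.78 (interferon), 0.45 (adipocyte), -0.75 (heat shock) and -0.30 (osteogenic).

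The direction of some genes turned. Tnfsf11, within the threshold, was at 0.21 without inflammatory genes and at 0.35 with mean deposited values. Without inflammatory genes Ccl6 was at -1.88, Ngp at 0.29, Camp at 0.28 and S100a8 at 0.50. With likely doublets left out S100a8 was at 0.10, Lyz2 at 0.12, Ltf at 1.10, Ppbp at 0.15 and Bglap at 0.37. Without cells rich in blood-cell UMIs, an alternative added after the data were seen, S100a9 was at 0.0031, S100a8 at 0.23, Lyz2 at 0.034, Ltf at 1.04 and Itga2b at 0.024. With mean deposited values S100a9 was at 0.15, S100a8 at 0.038, Lyz2 at 0.051, Cfd at 0.17, Col1a1 at 0.43, Col3a1 at 0.76, Rgs5 at 0.044 and Bglap at 0.56. Cfd was at 0.95 with at most 5% mitochondrial UMIs, Itga2b at 0.76 in thinned cells, and Rgs5 at 0.80 with all 3 CAR genes and 0.72 with at least 2 of Ebf3, Kitl and Foxc1. The cause was not tested.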
